A study of Mus musculus with 40 samples.

Results

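The change from the 1-cell to the 2-cell stage was compared between cloned and fertilized mouse embryos. The comparison uses the 15 untreated arrays with values from B6D2 embryos, of 40 samples in the series. The fertilized groups hold 4 arrays at the 1-cell and 4 at the 2-cell stage. The cloned groups, made by somatic cell nuclear transfer (SCNT) with a cumulus cell as the nuclear donor, hold 3 and 4. A further 1-cell SCNT sample has an empty value column. The measure is the stage-change interaction, which is the SCNT change (2-cell minus 1-cell, on the log2 scale) minus the fertilized change, and it was computed for all 14916 genes tested. A positive interaction means that the SCNT change lay above the fertilized change, and a negative one that it lay below. The remaining samples enter no mean of the interaction but share its normalization, gene filter and estimate of the spread. They are fertilized and SCNT embryos with α-amanitin and parthenogenetic embryos, which develop from an activated egg without sperm, each at both stages. The labels call the SCNT animals female. They name MEMα as the medium of some SCNT samples and KSOM for 1 fertilized 1-cell sample, so medium and origin cannot be told apart. Whether the replicates are separate batches of embryos is not stated, so p-values measure only the spread between these samples, which may be technical.

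The mouse 1-cell embryo runs on RNA and protein stored in the egg. Minor transcription starts in the 1-cell stage, the major wave of embryonic transcription comes in the 2-cell stage, and most stored maternal RNA is destroyed over the same period. In SCNT the egg's own chromosomes are replaced by a somatic nucleus, so the same stored RNA meets chromatin that carries a differentiated cell's marks, and no sperm contributes. The change between the stages therefore holds both loss of stored RNA and new transcription, and α-amanitin, which blocks RNA polymerase II, removes the new transcripts.

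Poly(A) RNA was hybridized to Affymetrix arrays, and values are given as log2(value + 6.9) after quantile normalization, in the order of the replicate numbers (1, 3 and 4 for SCNT 1-cell arrays), with the added constant setting a floor of 2.79. A difference to a group under the overall median of 5.34 is in part set by that constant. At the 1-cell stage 0 of 41 measured oocyte transcripts had a mean under the overall median in either origin. Measured members had already passed a filter on that median, so this count is no test of what the samples are. Within groups, pairs of arrays had correlations between 0.9563 and 0.9735 over the genes. Control probe sets were left out of that normalization, so their log2(value + 6.9), here and below, is not on the scale of the genes. Poly(A) spike controls averaged 6.39 and 7.70 on fertilized 1-cell and 2-cell arrays but 3.67 and 8.74 on SCNT arrays. Group means of hybridization controls lay between 9.89 and 10.05, and single fertilized 1-cell arrays between 9.61 and 10.66. The spike level thus moved with the groups compared, and its part in the interaction was not tested. The 18S 3′ probe set read 13.15 and 13.47 on fertilized and SCNT 1-cell arrays and 9.50 and 10.14 on 2-cell arrays. An array measures a share of the RNA loaded, so fewer embryos or blastomeres with a transcript and less of it in each cannot be told apart.

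Most genes had no called difference in stage change between the origins, and a minority had one. The interaction was called for 2836 of 14916 genes (19%) by limma at a Benjamini-Hochberg adjusted p under 0.05, 1286 positive (8.62%) and 1550 negative (10.4%). Of these, 754 positive and 697 negative genes differed at least 2-fold. The median over all genes was -0.05 and the median standard error 0.34. Leaving out any 1 of the 15 arrays left 1961 genes called in every fit, 874 positive and 1087 negative. The split by direction depended on the scaling: 45.3% of calls were positive here, 32.2% with median centring and 50.7% with values as deposited, and these scalings moved the median of all genes to -0.13 and 0.05.

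The stage changes behind the calls took several forms. Over all genes the change was called for 60% in fertilized (25.8% up, 34.2% down) and 60.7% in SCNT embryos (26.3% up, 34.4% down). Of the 1286 positive genes, 333 fell in both origins but further in fertilized embryos, 243 fell in fertilized embryos with no called change in SCNT embryos, and 93 fell in fertilized and rose in SCNT embryos. Another 300 rose in SCNT embryos with no called fertilized change, 309 rose in both, and 8 had no called change in either. Of the 1550 negative genes, 613 fell in both but further in SCNT embryos, 280 fell in SCNT embryos with no called fertilized change, and 86 rose in fertilized and fell in SCNT embryos. A further 250 rose in fertilized embryos with no called SCNT change, 314 rose in both, and 7 had no called change in either. Falls in both origins were thus the most frequent form on both sides, with 39.5% of the negative and 25.9% of the positive genes.

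**Figure D1:**
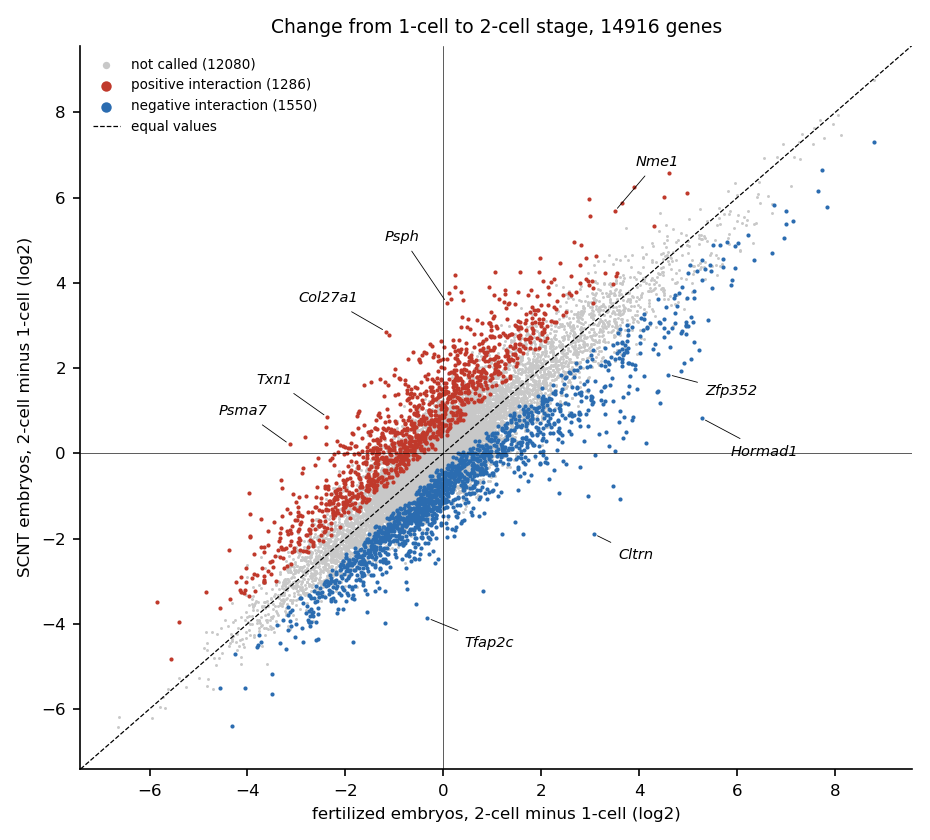
Change from the 1-cell to the 2-cell stage (log2) in fertilized embryos (horizontal axis) and SCNT embryos (vertical axis), 1 point per gene, with the 1286 called positive interactions in red, the 1550 called negative in blue and the dashed line at equal changes. The points follow the line, and Psma7 and Cltrn lie far from it on opposite sides.

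Most called interactions came with a difference between the origins at the 2-cell stage. Both 2-cell groups enter the interaction, so these counts describe it and are not a second test. The SCNT minus fertilized difference was called at the 2-cell stage alone for 2219 of the 2836 genes (78.2%), at the 1-cell stage alone for 209 (7.37%), at both for 183 (6.45%) and at neither for 225 (7.93%). Over all genes 829 (5.56%) were called at the 1-cell and 4559 (30.6%) at the 2-cell stage.

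Zfp352, a zinc finger gene known for its burst of transcription in 2-cell embryos, was among the exceptions. Its fertilized 1-cell arrays read 7.73, 6.23, 7.05 and 6.37, and the SCNT 1-cell arrays 9.40, 9.09 and 9.64. At the 2-cell stage the fertilized arrays read 11.30, 11.16, 11.84 and 11.43 and the SCNT arrays 11.61, 11.20, 11.09 and 10.99. The groups did not overlap at the 1-cell stage, where SCNT embryos were higher by 2.53 (SE 0.27, adjusted p = 6.97e-08), and they overlapped at the 2-cell stage. Its negative interaction of -2.74 (SE 0.37, adjusted p = 6.99e-07) came with a high SCNT starting level, and with the α-amanitin 1-cell arrays as the baseline it was -0.87 (adjusted p = 0.0738). Bub1b, a kinase-like protein of the spindle checkpoint, started low instead. It read 10.15, 10.79, 10.92 and 10.84 on fertilized and 8.59, 8.70 and 8.46 on SCNT 1-cell arrays, a difference of -2.09 (SE 0.18, adjusted p = 3.29e-10) without overlap. By the 2-cell stage the fertilized level had fallen to 8.44, 8.48, 8.66 and 8.64, beside 8.97, 8.83, 8.95 and 8.42 in SCNT embryos, and the interaction was 2.32 (SE 0.25, adjusted p = 3.74e-09).

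**Figure D2:**
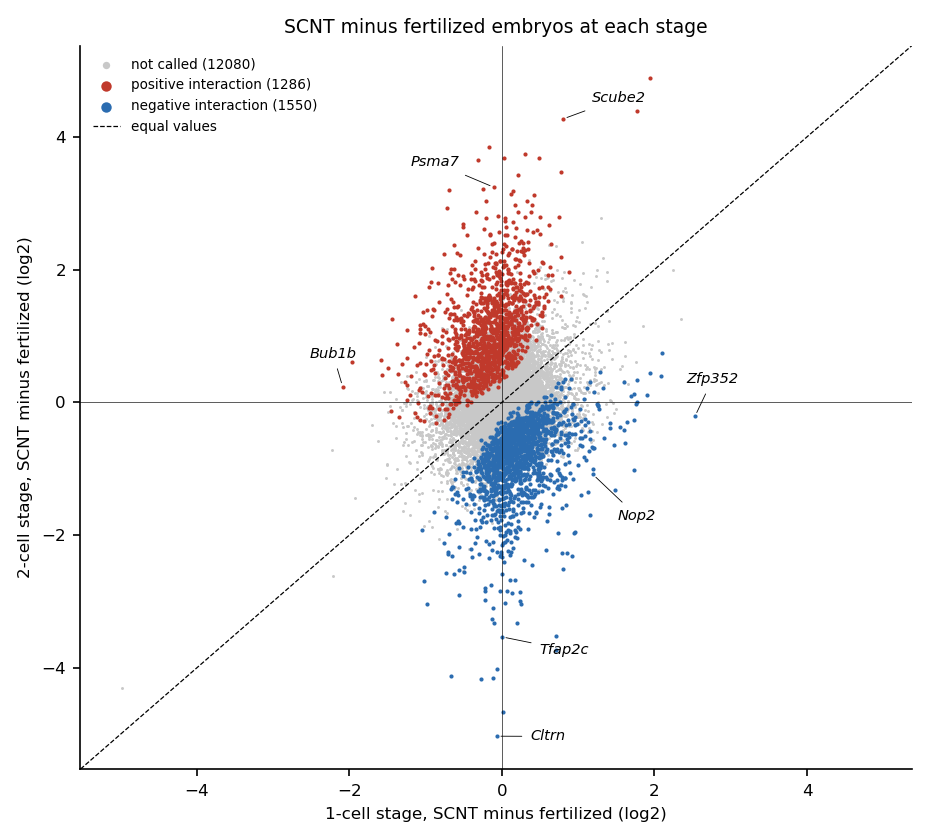
SCNT minus fertilized difference (log2) at the 1-cell stage (horizontal axis) and at the 2-cell stage (vertical axis), 1 point per gene, with called positive interactions in red and called negative in blue. Most coloured points spread along the vertical axis, while Zfp352 (1-cell difference 2.53) and Bub1b (-2.09) lie out along the horizontal one.

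Among genes whose calls survived every omission of an array, the most negative interactions were mostly of genes that rose in fertilized embryos and stayed low or fell in clones. Cltrn, which encodes the membrane protein collectrin, had the most negative value. Its fertilized arrays read 5.51, 5.70, 5.91 and 6.18 at the 1-cell and 8.90, 8.98, 8.70 and 9.003 at the 2-cell stage. The SCNT arrays read 5.87, 5.74 and 5.66 and then 3.99, 3.69, 3.93 and 3.84. The origins overlapped at the 1-cell stage, moved in opposite directions and stood apart at the 2-cell stage, with an interaction of -4.96 (SE 0.39, adjusted p = 7.26e-12).

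Hormad1, a meiotic chromosome axis protein of germ cells, rose in both origins, in fertilized embryos from 3.02, 3.09, 3.68 and 3.21 to 8.22, 8.42, 8.76 and 8.69. In SCNT embryos Hormad1 went from 4.35, 3.96 and 3.57 to 4.002, 4.50, 5.27 and 5.36, all under the fertilized 2-cell arrays, and the interaction was -4.45 (SE 0.40, adjusted p = 1.3e-10). Krt28, a hair follicle keratin, read 4.85, 4.65, 3.54 and 4.66 and then 8.03, 8.36, 7.85 and 7.87 in fertilized embryos. The SCNT arrays of Krt28 read 4.24, 4.93 and 4.15 and then 3.27, 3.61, 3.23 and 3.35, all under the overall median, and the interaction was -4.67 (SE 0.54, adjusted p = 2.54e-08). Cpn1, the catalytic subunit of carboxypeptidase N, and Foxa1, a pioneer transcription factor of endoderm, shared this shape. Cpn1 went from 4.30 ± 0.15 to 7.75 ± 0.22 in fertilized and 5.01 ± 0.23 to 4.24 ± 1.004 in SCNT embryos (SD, n = 4, 4, 3 and 4), with an interaction of -4.23 (adjusted p = 1.43e-06). Foxa1 went from 3.69 ± 0.22 to 7.42 ± 0.16 in fertilized and 3.59 ± 0.37 to 4.10 ± 0.52 in SCNT embryos, with an interaction of -3.23 (adjusted p = 4.32e-05). The means of Cpn1 and Foxa1 lay under 5.34 in every group but fertilized 2-cell, so both genes passed the level filter through that group. Aspg, an asparaginase, and Mep1b, a meprin metalloprotease subunit, had interactions of -3.32 (adjusted p = 3.85e-05) and -3.29 (adjusted p = 0.000632). Both rose to means of 8.33 and 7.61 in fertilized 2-cell embryos against 5.82 and 4.56 in clones.

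The promoters of Hormad1 and Krt28 are shown because both genes went from low to high in fertilized embryos and hold different motifs. Each is the 150 bases before the RefSeq start (GRCm38.p6), at chr3:95559527-95559676, plus strand and chr11:99374904-99375053, minus strand. Capitals mark the palindromic NRF1 motif in Hormad1 and CCAAT and TATAAA in Krt28.
Hormad1: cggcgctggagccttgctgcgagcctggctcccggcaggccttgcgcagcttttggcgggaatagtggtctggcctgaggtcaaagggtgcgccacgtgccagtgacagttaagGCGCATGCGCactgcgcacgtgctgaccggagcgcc
Krt28: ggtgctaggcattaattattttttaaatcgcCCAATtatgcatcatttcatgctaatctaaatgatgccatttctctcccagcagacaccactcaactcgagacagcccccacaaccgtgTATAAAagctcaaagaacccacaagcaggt
The NRF1 motif lay in 1.4% of the 11959 RefSeq promoters that matched genes tested, searched on both strands of the 250 bases before the start. TATAAA lay in 7.78% and CCAAT in 36%. Among called negative genes the shares were 1.99%, 7.07% and 35.5%, and among called positive genes 1.43%, 6.39% and 39.5%.

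A second form was a strong fall in clones of a transcript that fertilized embryos held. Tfap2c, a transcription factor of the early trophoblast lineage, read 9.70, 10.47, 10.46 and 10.59 on fertilized 1-cell and 9.93, 10.21, 9.85 and 9.91 on fertilized 2-cell arrays. In clones it fell from 10.42, 10.46 and 10.03 to 5.50, 6.50, 7.28 and 6.47, with an interaction of -3.53 (SE 0.34, adjusted p = 4.37e-10). The 1-cell groups overlapped and the SCNT 2-cell arrays lay under all others. Gsdmc2, a gasdermin, went from 7.58 ± 0.22 to 8.38 ± 0.11 in fertilized and 7.46 ± 0.09 to 4.22 ± 0.70 in SCNT embryos, an interaction of -4.05 (adjusted p = 3.6e-11). Rpl39l, a paralog of a ribosomal protein known from testis, went from 9.82 ± 0.37 to 11.45 ± 0.15 in fertilized and 10.02 ± 0.14 to 8.13 ± 0.72 in SCNT embryos, an interaction of -3.52 (adjusted p = 1.8e-10). Both rose in fertilized and fell in SCNT embryos. Rpl39l is near-identical to another ribosomal gene, so its probe set may read both. Dis3l, a ribonuclease of the cytoplasmic exosome, went from 8.34 ± 0.18 to 9.54 ± 0.08 in fertilized and 8.58 ± 0.15 to 6.68 ± 0.39 in SCNT embryos, an interaction of -3.10 (adjusted p = 1.87e-12).

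Med29, a Mediator subunit, rose in both origins but less in clones, from 4.86 ± 0.66 to 9.27 ± 0.16 in fertilized and 5.77 ± 0.25 to 6.96 ± 0.17 in SCNT embryos, and its interaction was -3.23 (adjusted p = 5.34e-08). Eif2s3y, a translation initiation factor encoded on the Y chromosome, rose from 3.97, 2.89, 3.10 and 4.21 to 6.64, 6.83, 7.34 and 7.41 in fertilized embryos. The SCNT arrays of Eif2s3y read 2.87, 2.89 and 2.86 and 2.95, 2.86, 2.93 and 3.001, at or near the floor, and its interaction was -3.45 (adjusted p = 4.92e-07). The labels give the SCNT animals as female, so a Y-linked transcript differs with the sex of the nucleus as well as with cloning. Without the filter another probe set stood for Eif2s3y and its interaction was 0.03.

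At the positive end, many of the leading genes rose in clones from low 1-cell levels. Psph, the last enzyme of serine synthesis, read 5.68, 5.34, 5.58 and 5.68 on fertilized 1-cell and 5.78, 5.90, 5.53 and 5.35 on fertilized 2-cell arrays. In clones it rose from 4.76, 5.85 and 5.37 to 8.91, 8.96, 8.71 and 8.82. All SCNT 2-cell arrays lay above all other untreated arrays, and the interaction was 3.45 (SE 0.36, adjusted p = 2.87e-09). Col27a1, a fibrillar collagen, read 6.91, 6.42, 6.12 and 6.23 and then 4.86, 6.17, 4.84 and 5.15 in fertilized embryos. In SCNT embryos it read 5.90, 6.12 and 6.74 and then 10.09, 8.75, 8.82 and 8.77, again without overlap at the 2-cell stage, and the interaction was 4.02 (SE 0.56, adjusted p = 1.19e-06).

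Ripk3, the kinase of necroptosis, Clcn2, a chloride channel, and Scube2, a secreted factor that helps release Hedgehog ligands, rose in clones with no called fertilized change. Ripk3 went from 4.23 ± 0.77 to 4.47 ± 0.39 in fertilized and 3.92 ± 0.55 to 8.12 ± 0.39 in SCNT embryos, an interaction of 3.96 (adjusted p = 1.48e-06). Clcn2 went from 3.16 ± 0.19 to 3.40 ± 0.33 in fertilized and 3.18 ± 0.25 to 7.09 ± 0.49 in SCNT embryos, an interaction of 3.67 (adjusted p = 1.4e-07). Scube2 went from 3.95 ± 0.90 to 4.10 ± 0.53 in fertilized and 4.75 ± 0.36 to 8.37 ± 0.24 in SCNT embryos, an interaction of 3.47 (adjusted p = 1.57e-05). In every group but SCNT 2-cell the means of Ripk3, Clcn2 and Scube2 lay under 5.34, so these genes passed the level filter through that group. Krtcap2, a subunit of the oligosaccharyltransferase, Wdr6, a tRNA methylation partner, and Fkbp1b, a channel-binding immunophilin, showed the same shape, with interactions of 3.65, 3.43 and 3.21 (largest adjusted p = 9.69e-05). Acadvl, the first enzyme of very long chain fatty acid oxidation, and Gsta2, a glutathione transferase, fell in fertilized and rose in SCNT embryos. Their interactions were 3.90 (adjusted p = 1e-05) and 3.24 (adjusted p = 9.4e-06), on levels that lay under 5.34 in part of the groups.

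Txn1, the redox protein thioredoxin, moved in opposite directions at high levels. Its fertilized arrays read 9.28, 9.56, 9.40 and 9.30 at the 1-cell and 6.98, 6.78, 7.25 and 7.05 at the 2-cell stage. Its SCNT arrays read 9.54, 9.60 and 9.63 and then 10.68, 10.56, 10.22 and 10.29. The fertilized 2-cell arrays lay under and the SCNT 2-cell arrays above both 1-cell groups, and the interaction was 3.21 (SE 0.20, adjusted p = 1.25e-14). The mean of its probe sets gave 0.98 (adjusted p = 0.193).

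**Figure D3:**
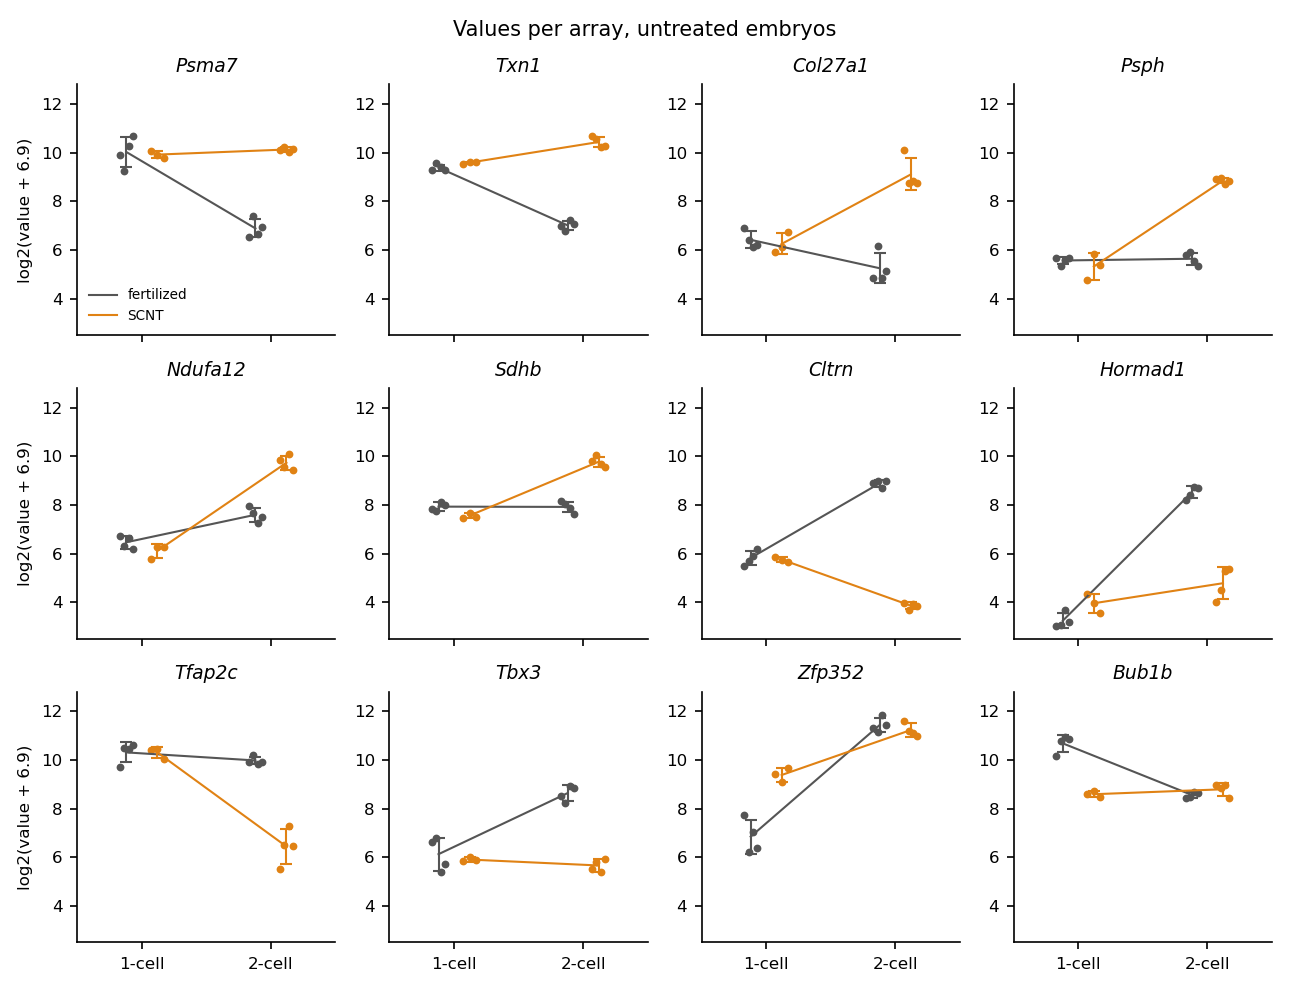
Log2 values of 12 genes on each untreated array (points) at the 1-cell and 2-cell stages, with lines between the group means and bars of 1 SD, fertilized in grey (n = 4 and 4) and SCNT in orange (n = 3 and 4). Psma7, Txn1 and Col27a1 part with the fertilized embryos below, Cltrn, Hormad1, Tfap2c and Tbx3 with the SCNT embryos below, and Zfp352 and Bub1b differ at the 1-cell stage.

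Proteasome genes had more positive than negative interactions. The proteasome is the barrel-shaped protease that degrades ubiquitin-tagged proteins, with a core of α and β subunits and a regulatory cap. Of 43 measured subunits, 19 had a called positive interaction and 0 a called negative one (2 without fertilized 2-cell replicate 2), beside 8.62% and 10.4% of all genes. The median was 0.56, 39 of 43 lay above 0, and 14 calls held in every fit that left out 1 array. The list mean read 9.01, 9.06, 9.17 and 9.14 on fertilized 1-cell and 9.09, 9.19, 9.01 and 9.11 on fertilized 2-cell arrays. In SCNT embryos it read 9.01, 9.03 and 9.03 and then 9.76, 9.83, 9.78 and 9.79, so the SCNT 2-cell arrays stood above all others. With median centring 12 subunits were called positive, and the median was 0.37.

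The core subunit Psma7 fell in fertilized embryos and had no called change in clones. Fertilized arrays read 9.91, 9.27, 10.26 and 10.68 at the 1-cell and 6.55, 7.38, 6.68 and 6.95 at the 2-cell stage, and SCNT arrays 10.08, 9.92 and 9.77 and then 10.10, 10.23, 10.03 and 10.16. The fertilized 2-cell arrays lay under every other untreated array, and the interaction was 3.35 (SE 0.28, adjusted p = 1.61e-11). Psma5, another core α subunit, went from 10.47 ± 0.36 to 9.74 ± 0.18 in fertilized and 9.55 ± 0.37 to 11.76 ± 0.13 in SCNT embryos, an interaction of 2.94 (adjusted p = 7.84e-12). It also differed at the 1-cell stage, SCNT minus fertilized, at -0.91. Psmb3, a core β subunit, fell in fertilized and rose in SCNT embryos, from 8.80 ± 0.23 to 7.28 ± 0.07 in fertilized and 8.83 ± 0.07 to 9.34 ± 0.24 in SCNT embryos, with an interaction of 2.03 (adjusted p = 6.63e-08). Psmc3, an ATPase of the cap, rose in clones, from 7.69 ± 0.20 to 7.98 ± 0.36 in fertilized and 7.56 ± 0.10 to 9.72 ± 0.19 in SCNT embryos, an interaction of 1.87 (adjusted p = 0.00064). Not every subunit was called: Psmd11, an abundant cap subunit, had an interaction of 0.17 (adjusted p = 0.328). Psme4, an alternative activator of the core, had -0.42 (adjusted p = 0.0611).

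These 3 proteasome promoters are printed because 33.3% of the proteasome promoters in RefSeq (12 of 36) held CCGGAAG, an ETS-type motif, beside 11.9% of all promoters. Psma7 has the most positive interaction of the list and no CCGGAAG, and Psmd2 and Psmc6, chosen after their values and letters were seen, hold it. Each is the 150 bases before the start (GRCm38.p6), at chr2:180042465-180042614, minus strand, chr16:20651502-20651651, plus strand and chr14:45329674-45329823, plus strand. Capitals mark GGGCGG on either strand in Psma7, where 2 of the 4 matches overlap, and CCGGAAG on either strand in Psmd2 and Psmc6. The Psmd2 and Psmc6 sequences also hold GGGCGG, which is not marked there.
Psma7: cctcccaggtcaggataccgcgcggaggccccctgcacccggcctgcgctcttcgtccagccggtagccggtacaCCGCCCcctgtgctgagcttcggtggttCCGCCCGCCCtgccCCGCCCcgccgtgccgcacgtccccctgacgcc
Psmd2: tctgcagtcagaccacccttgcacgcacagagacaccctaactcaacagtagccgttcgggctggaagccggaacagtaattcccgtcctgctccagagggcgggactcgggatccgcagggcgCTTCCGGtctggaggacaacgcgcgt
Psmc6: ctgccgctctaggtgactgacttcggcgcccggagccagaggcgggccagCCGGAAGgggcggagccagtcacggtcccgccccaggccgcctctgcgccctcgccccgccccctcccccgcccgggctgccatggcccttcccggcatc
Psmd2, a scaffold subunit of the cap, had an interaction of 1.49 (adjusted p = 7.68e-07) and Psmc6, a cap ATPase, 1.23 (adjusted p = 2.11e-05). Of the subunits with a RefSeq promoter, 5 of 15 called and 7 of 21 uncalled promoters held it, 33.3% of each. Over all genes it lay in 15.3% of called positive and 14.1% of called negative promoters. GGGCGG lay in 53.8% of all, 62.7% of called positive and 59.8% of called negative promoters. A match says only that the letters are present.

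Genes of the mitochondrial respiratory chain also had mostly positive calls. The chain passes electrons from NADH and succinate to oxygen through complexes I to IV, and complex V uses the resulting gradient to make ATP. Of 34 measured complex I genes 14 were called positive and 0 negative, 41.2% and 0% beside 8.62% and 10.4% of all genes, with a median of 0.81. Of 39 genes of complexes II to V 20 were called positive and 0 negative, 51.3% and 0%, with a median of 0.81. The complex I list mean read 7.93, 7.72, 7.91 and 7.88 on fertilized 1-cell and 8.08, 8.10, 7.90 and 7.86 on fertilized 2-cell arrays. On SCNT arrays it read 7.80, 7.82 and 7.75 and then 8.69, 8.66, 8.74 and 8.64, above every fertilized array at the 2-cell stage. For complexes II to V the fertilized 2-cell list means ran from 9.12 to 9.45 and the SCNT ones from 9.96 to 10.07. With median centring 9 and 16 members were called positive.

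Ndufa12, an accessory subunit of complex I, rose in both origins and more in clones. It read 6.74, 6.30, 6.64 and 6.18 and then 7.94, 7.69, 7.25 and 7.51 in fertilized embryos, and 5.79, 6.26 and 6.29 and then 9.83, 9.58, 10.08 and 9.45 in SCNT embryos. The 2-cell groups did not overlap, and the interaction was 2.49 (SE 0.34, adjusted p = 5.8e-07). Ndufs7 and Ndufs3, which belong to the electron-carrying core of complex I, had interactions of 2.18 (adjusted p = 3.83e-08) and 2.01 (adjusted p = 1.19e-06). Ndufs3 fell in fertilized embryos, from 8.93 to 7.80, and its 1-cell difference between clones and fertilized embryos was -0.94. Ndufa9, a further accessory subunit, reached 10.76 in clones and 9.42 in fertilized embryos, an interaction of 1.42 (adjusted p = 0.000111).

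Sdhb, the iron-sulfur subunit of succinate dehydrogenase (complex II), read 7.85, 7.73, 8.13 and 8.01 on fertilized 1-cell and 8.14, 8.02, 7.88 and 7.63 on fertilized 2-cell arrays. The SCNT arrays rose from 7.48, 7.69 and 7.51 to 9.81, 10.05, 9.67 and 9.57, above all other untreated arrays, and the interaction was 2.23 (SE 0.23, adjusted p = 2.45e-09). Atp5l and Atp5e, small subunits of ATP synthase, had interactions of 2.13 (adjusted p = 0.00068) and 1.72 (adjusted p = 0.000714). Atp5b, the catalytic β subunit, was not called at 0.55 (adjusted p = 0.0653), with means of 11.63 and 11.78 at the 2-cell stage.

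Mitochondrial ribosome and import genes also had more positive than negative calls. Of 75 measured mitochondrial ribosomal protein genes 23 were called positive and 1, Mrpl3, negative, 30.7% and 1.33%, with a median of 0.48. Mrpl11 and Mrps31 fell in fertilized embryos alone among the called changes, Mrpl11 from 8.37 ± 0.31 to 5.81 ± 0.69 in fertilized and 8.55 ± 0.18 to 8.43 ± 0.18 in SCNT embryos, an interaction of 2.45 (adjusted p = 2.19e-05). Mrps31 had an interaction of 2.03 (adjusted p = 3.89e-05). Mrpl42 and Mrpl39 rose in clones, with interactions of 1.83 (adjusted p = 9.28e-05) and 1.77 (adjusted p = 0.000179). Of 28 genes for protein import into mitochondria 6 were called positive and 1 negative, 21.4% and 3.57%, with a median of 0.19, which was -0.03 with median centring and with the α-amanitin 1-cell baseline. Timm13, a chaperone of the space between the membranes, Grpel1, a partner of the import motor, and Samm50, the outer-membrane barrel assembly factor, had interactions of 1.90 (adjusted p = 0.000203), 1.46 (adjusted p = 4.07e-06) and 1.27 (adjusted p = 1.42e-05). The negative member was Tomm34, a cytosolic co-chaperone of import, at -0.69 (adjusted p = 0.000853), named after its value was seen.

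Of 35 aminoacyl-tRNA synthetase genes, whose enzymes load amino acids onto tRNA, 8 were called positive and 1, Sars, negative, 22.9% and 2.86% beside 8.62% and 10.4% of all genes, with a median of 0.41. Lars, which charges leucine, fell in both origins and less in clones, from 8.83 ± 0.27 to 5.76 ± 0.37 in fertilized and 8.45 ± 0.09 to 7.50 ± 0.28 in SCNT embryos, an interaction of 2.12 (adjusted p = 1.24e-05). Mars1, which charges methionine, rose in both and more in clones, from 5.77 ± 0.20 to 7.76 ± 0.08 in fertilized and 5.75 ± 0.25 to 9.23 ± 0.18 in SCNT embryos, an interaction of 1.49 (adjusted p = 0.000166). Tars and Gars, for threonine and glycine, had interactions of 1.71 (adjusted p = 1.24e-05) and 1.11 (adjusted p = 2.18e-09). Both fell in fertilized embryos. Cytosolic ribosomal proteins rose in both origins, with median changes of 3.05 and 3.05 and 41 and 43 of 45 called up. The interaction was called positive for 4 of them (Rpl7, Rpl12, Rpl22 and Rpl37) and negative for 2 (Rpl41 and Rps28), 8.89% and 4.44%, with a median of 0.20, or -0.10 with median centring. It was 0.11 without fertilized 1-cell replicate 1 and 0.12 without fertilized 2-cell replicate 4. Rpl12 and Rpl37, parts of the large subunit, had interactions of 1.76 (adjusted p = 0.00671) and 1.53 (adjusted p = 0.0001). Ribosomal protein genes have many processed copies whose RNA could share probes, so these values are uncertain.

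Of 40 translation factors 11 were called positive and 6 negative, 27.5% and 15%, with a median of 0.13. Eif3k and Eif3d, subunits of the initiation factor that holds the small ribosomal subunit, had interactions of 1.21 (adjusted p = 0.00338) and 1.09 (adjusted p = 3.8e-05). Eif2b4, a subunit of the exchange factor for eIF2, and Etf1, the release factor, had -1.22 (adjusted p = 0.00307) and -0.91 (adjusted p = 3.65e-05). With median centring the median of the list was -0.14 and 1 member was called positive, so no direction is given for it. Of 47 chaperone genes 11 were called positive and 3 negative (Hsph1, Dnajb9 and Vbp1), 23.4% and 6.38%, with a median of 0.15 that median centring turned to -0.12. Hsp90b1, the heat-shock protein of the endoplasmic reticulum, fell in fertilized and rose in SCNT embryos, from 9.89 ± 0.21 to 9.06 ± 0.38 in fertilized and 9.95 ± 0.07 to 10.72 ± 0.31 in SCNT embryos, an interaction of 1.59 (adjusted p = 2.77e-07). Cct5, a subunit of the chaperonin that folds actin and tubulin, rose in clones, with an interaction of 1.41 (adjusted p = 6.63e-07). Pfdn1, a prefoldin subunit that hands clients to it, fell less in clones, with an interaction of 1.33 (adjusted p = 0.00173). Hsph1, an exchange factor for HSP70, rose in fertilized embryos without a called change in clones and was higher in clones at the 1-cell stage, with an interaction of -1.27 (adjusted p = 3.23e-05).

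Stress genes had calls in both directions. Of 53 genes of the p53, oxidative and integrated stress responses 15 were called positive and 6 negative, 28.3% and 11.3% beside 8.62% and 10.4% of all genes, with a median of 0.17, or -0.04 with median centring. Psph and Txn1, described above, were the 2 most positive. Ccng1, a p53 target, rose in both origins, from 6.12 ± 0.27 to 7.09 ± 0.18 in fertilized and 6.17 ± 0.07 to 9.15 ± 0.45 in SCNT embryos, an interaction of 2.01 (adjusted p = 7.13e-06). Eif2ak4, the kinase GCN2 that senses amino acid shortage, fell further in clones, from 10.01 ± 0.27 to 8.45 ± 0.22 in fertilized and 9.84 ± 0.09 to 6.11 ± 0.64 in SCNT embryos, an interaction of -2.17 (adjusted p = 1.98e-07), though the mean of its probe sets was not called.

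Metabolic lists other than the respiratory chain were mixed. Of 22 glycolysis and lactate genes 3 were called positive (Aldoa, Tpi1 and Slc2a1) and 5 negative (Hk2, Pgk1, Ldha, Slc2a3 and Pdha1), 13.6% and 22.7% beside 8.62% and 10.4% of all genes, with a median of -0.0027. Hk2, a hexokinase, fell in clones, from 7.72 ± 0.33 to 7.53 ± 0.17 in fertilized and 7.95 ± 0.09 to 6.34 ± 0.43 in SCNT embryos, an interaction of -1.42 (adjusted p = 0.000662). Of 24 purine and pyrimidine synthesis genes 2 were called positive (Dtymk and Nme1) and 4 negative (Ppat, Adsl, Umps and Cmpk1), 8.33% and 16.7%, with a median of -0.20, or 0.04 with the mean of probe sets and -0.13 without fertilized 1-cell replicate 1. Nme1, a nucleoside diphosphate kinase, rose in both origins and reached 11.78 in clones against 9.38 in fertilized embryos, an interaction of 2.18 (adjusted p = 3.04e-05). Adsl, which acts at 2 steps of purine synthesis, rose less in clones, with an interaction of -1.17 (adjusted p = 0.0155). Umps, which makes UMP, rose in fertilized embryos, with an interaction of -1.26 (adjusted p = 0.00454), which was not called for the mean of its probe sets.

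Transcripts listed as switched on at the 2-cell stage mostly rose strongly in both origins. Their median change was 4.59 in fertilized and 4.15 in SCNT embryos. Of 29 measured members 24 and 22 were called up, and 5 and 3 down. The interaction was called negative for 9 and positive for 2 (Nelfa and Gabarapl2), 31% and 6.9% beside 10.4% and 8.62% of all genes, with a median of -0.29, or -0.45 without SCNT 1-cell replicate 1. Btbd18, a transcription regulator of the germ line, rose from 3.59 ± 0.59 to 11.41 ± 0.20 in fertilized and 4.26 ± 0.54 to 10.03 ± 0.27 in SCNT embryos, an interaction of -2.06 (adjusted p = 0.00214). Tcstv3, a member of a gene cluster active in 2-cell embryos, rose from 7.11 ± 0.07 to 9.36 ± 0.07 in fertilized and 7.13 ± 0.22 to 7.83 ± 0.39 in SCNT embryos, an interaction of -1.54 (adjusted p = 4.83e-05). Near-identical members of that cluster may share its probes. Nelfa, a pausing factor of RNA polymerase II, had an interaction of 0.71 (adjusted p = 0.00171) and was named after its value was seen. Obox2, an oocyte homeobox gene with the highest mean among the members not called, had 0.29 (adjusted p = 0.144). It fell in both origins, with changes of -3.235 in fertilized and -2.943 in SCNT embryos.

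Called interactions of lineage factors were mostly negative. Of 37 pluripotency and early lineage factors 12 were called negative and 2 positive, 32.4% and 5.41% beside 10.4% and 8.62% of all genes, with a median of -0.33 beside -0.05 over all genes. The list mean rose from 6.96, 7.12, 6.995 and 7.02 to 8.04, 8.19, 8.10 and 8.09 across the fertilized arrays. On SCNT arrays it read 7.14, 7.17 and 7.08 and then 7.70, 7.69, 7.75 and 7.70, under every fertilized 2-cell array. Tbx3, a T-box factor of early embryos that is also in the 2-cell list, rose in fertilized embryos from 6.60, 6.78, 5.40 and 5.71 to 8.51, 8.22, 8.94 and 8.86. In SCNT embryos it read 5.83, 6.01 and 5.87 and then 5.51, 5.82, 5.39 and 5.92, and the interaction was -2.75 (SE 0.33, adjusted p = 6.35e-08). Prdm14, a germ cell and pluripotency regulator, rose in fertilized embryos to 7.02, against 5.43 in clones, an interaction of -2.38 (adjusted p = 0.00145). Sox2, a core pluripotency factor, fell in both origins and further in clones, from 6.97 ± 0.40 to 6.26 ± 0.49 in fertilized and 6.65 ± 0.35 to 4.24 ± 0.65 in SCNT embryos, an interaction of -1.70 (adjusted p = 0.00296). The positive members were Klf4, a reprogramming factor, at 0.84 (adjusted p = 0.00386), and Rex1bd at 1.47 (adjusted p = 0.000171), both named after their values were seen. Rex1bd is no lineage factor and entered the list by its name. Dppa5a, abundant in early embryos, was not called at -0.32 (adjusted p = 0.246).

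Genes of chromatin modification had calls in both directions. Of 83 histone and DNA modifiers 18 were called negative and 6 positive, 21.7% and 7.23% beside 10.4% and 8.62% of all genes, with a median of -0.19. With the α-amanitin 1-cell baseline 11 were called positive and the median was -0.02. Prmt2, an arginine methyltransferase, read 11.18, 11.49, 11.50 and 11.48 and then 10.83, 10.80, 10.91 and 10.72 in fertilized embryos and 11.65, 11.73 and 11.66 and then 9.31, 8.84, 9.30 and 9.46 in SCNT embryos. The SCNT 2-cell arrays lay under all others, and the interaction was -1.86 (SE 0.14, adjusted p = 2.52e-12). Kmt2d, a methyltransferase of histone H3 lysine 4 at enhancers, fell in clones, from 9.55 ± 0.21 to 9.63 ± 0.21 in fertilized and 10.02 ± 0.03 to 8.28 ± 0.33 in SCNT embryos, an interaction of -1.82 (adjusted p = 2.23e-08). Asf1a, a histone chaperone, went the other way and fell less in clones, from 12.04 ± 0.06 to 9.24 ± 0.21 in fertilized and 11.87 ± 0.10 to 10.86 ± 0.24 in SCNT embryos, an interaction of 1.79 (adjusted p = 3.73e-10).

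Maternal transcripts fell in both origins. Over 41 oocyte and maternal-effect genes the median change was -2.30 in fertilized and -2.12 in SCNT embryos, and 33 and 38 were called down. The interaction was called negative for 13 and positive for 7, 31.7% and 17.1% beside 10.4% and 8.62% of all genes, with a median of -0.21. This median was -0.12 without fertilized 2-cell replicate 2 and -0.13 without fertilized 1-cell replicate 3 or SCNT 1-cell replicate 3. With quantile normalization over the 15 arrays 2 were called positive. Rfpl4, an oocyte ubiquitin ligase-like protein, fell from 12.83 ± 0.06 to 9.33 ± 0.58 in fertilized and 12.74 ± 0.07 to 7.57 ± 0.53 in SCNT embryos, an interaction of -1.68 (adjusted p = 8.65e-06). Kit, the receptor of oocyte growth, fell from 10.78 ± 0.20 to 9.93 ± 0.19 in fertilized and 11.06 ± 0.08 to 8.58 ± 0.08 in SCNT embryos, an interaction of -1.62 (adjusted p = 3.94e-10). Gpr3, a receptor that holds oocytes in meiotic arrest, fell in clones without a called fertilized change, with an interaction of -1.34 (adjusted p = 1.08e-05). Nobox, an oocyte homeobox factor, fell less in clones, from 9.60 ± 0.93 to 4.21 ± 0.66 in fertilized and 9.85 ± 0.22 to 5.90 ± 0.15 in SCNT embryos, an interaction of 1.44 (adjusted p = 0.0102). Gdf9, an oocyte growth factor, was not called at -0.21 (adjusted p = 0.267), though it was lower in clones at the 1-cell stage, with a difference of -0.53.

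Genes of mRNA decay split in both directions. Of 47 measured members 12 were called positive and 7 negative, 25.5% and 14.9% beside 8.62% and 10.4% of all genes, with a median of -0.06 whose sign changed with single arrays left out. Tut4, which adds uridines to short poly(A) tails, rose in both origins and more in clones, from 5.29 ± 0.15 to 7.03 ± 0.26 in fertilized and 5.06 ± 0.20 to 8.77 ± 0.30 in SCNT embryos, an interaction of 1.97 (adjusted p = 2.18e-05). Zfp36l2, which recruits deadenylases to AU-rich RNA, rose in clones, with an interaction of 1.57 (adjusted p = 0.00118). Cnot8, a deadenylase, rose in fertilized and fell in SCNT embryos, from 11.11 ± 0.02 to 11.58 ± 0.11 in fertilized and 10.76 ± 0.10 to 9.80 ± 0.14 in SCNT embryos, an interaction of -1.43 (adjusted p = 5.54e-10). The mean of probe sets was not called for Zfp36l2 or Cnot8.

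Ribosome biogenesis genes mostly rose in both origins. Of 94 ribosome biogenesis factors 72 were called up in fertilized and 74 in SCNT embryos, and the interaction was called negative for 21 and positive for 5 (Nop56, Ncl, Rrp1b, Gnl2 and Nat10), 22.3% and 5.32% beside 10.4% and 8.62% of all genes. The median was -0.18, or -0.12 without fertilized 1-cell replicate 1. Fertilized 2-cell list means ran from 9.98 to 10.10 and SCNT ones from 9.70 to 9.91. Nop2, a ribosomal RNA methyltransferase, rose from 4.84 ± 0.65 to 10.24 ± 0.10 in fertilized and 6.04 ± 0.55 to 9.15 ± 0.12 in SCNT embryos, an interaction of -2.28 (adjusted p = 0.00396). With the α-amanitin 1-cell baseline the Nop2 value was 0.17, so its direction depended on which 1-cell arrays served as the baseline. Ddx52, a helicase of the small subunit's assembly, rose less in clones, with an interaction of -1.41 (adjusted p = 8.62e-06). Nsa2, a large-subunit factor, rose in fertilized embryos, with an interaction of -1.84 (adjusted p = 1.18e-06) that was not called with quantile normalization over the 15 arrays.

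The called shares of polymerase II, TFIID and Mediator genes lay near those of all genes. For RNA polymerase II, TFIID and Mediator 8 of 83 were called positive and 12 negative, 9.64% and 14.5% beside 8.62% and 10.4% of all genes, with a median of -0.03. Med30, a Mediator subunit, fell further in clones, from 11.89 ± 0.18 to 10.24 ± 0.13 in fertilized and 11.89 ± 0.12 to 8.79 ± 0.37 in SCNT embryos, an interaction of -1.45 (adjusted p = 1.2e-08). Polr2g, a stalk subunit of the polymerase, fell less in clones, with an interaction of 1.43 (adjusted p = 1.75e-07). For splicing factors 12 of 66 were called positive and 11 negative, 18.2% and 16.7%, with a median of -0.12 that other settings turned. Lsm3, a ring protein of U6 RNA, read 11.06, 11.09, 11.15 and 11.09 and then 8.30, 8.17, 8.24 and 8.21 in fertilized embryos. In clones it read 11.01, 10.91 and 11.04 and then 10.85, 10.75, 10.42 and 10.54, all above the fertilized 2-cell arrays, and the interaction was 2.52 (SE 0.16, adjusted p = 1.32e-14). Lsm6, of the same ring, had 1.41 (adjusted p = 7.11e-05), Prpf8, the central spliceosome protein, 1.44 (adjusted p = 1.56e-05), and Tardbp, the RNA-binding protein TDP-43, 1.43 (adjusted p = 2.77e-07). For nuclear pore genes 4 of 34 were called positive (Nup85, Nup205, Rae1 and Seh1l) and 7 negative, 11.8% and 20.6%, with a median of 0.02. Nup85, a scaffold nucleoporin, had 1.12 (adjusted p = 8.86e-06) and Nxt2, an mRNA export partner, -1.66 (adjusted p = 2.52e-06).

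In the remaining lists single members stood out. For replication and cell-cycle genes 13 of 74 were called positive and 18 negative, 17.6% and 24.3% beside 8.62% and 10.4% of all genes, with a median of -0.06. Gins2, a subunit of the replicative helicase, fell in clones, from 8.67 ± 0.13 to 8.89 ± 0.21 in fertilized and 8.67 ± 0.18 to 6.74 ± 0.35 in SCNT embryos, an interaction of -2.16 (adjusted p = 4.17e-06). Ccnd3, a D-type cyclin, rose in clones, with an interaction of 1.52 (adjusted p = 4.12e-05) that was not called for the mean of its probe sets. For ubiquitin-conjugating enzymes 6 of 28 were called positive and 3 negative (Ube2b, Ube2n and Ube2o), 21.4% and 10.7%, with a median of 0.09, or -0.10 and 1 positive call with median centring. Ube2d1, a broadly acting conjugating enzyme, fell in fertilized embryos from 6.87 ± 0.21 to 3.93 ± 0.74, with an interaction of 1.91 (adjusted p = 0.000189). For imprinted genes 6 of 36 were called positive and 2 negative (Grb10 and Phlda2), 16.7% and 5.56%, with a median of 0.19, which was 0.06 without SCNT 1-cell replicate 3 and 0.30 without SCNT 1-cell replicate 1. Sfmbt2, a paternally expressed Polycomb-related gene of the placenta, rose in clones, from 3.92 ± 0.53 to 3.88 ± 0.02 in fertilized and 4.70 ± 0.55 to 7.34 ± 0.57 in SCNT embryos, an interaction of 2.69 (adjusted p = 0.000822). Phlda2, a maternally expressed brake on placental growth, rose in fertilized and fell in SCNT embryos, with an interaction of -2.19 (adjusted p = 0.000257). Plagl1, a paternally expressed zinc finger gene, had 1.99 (adjusted p = 0.00957).

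**Figure D4:**
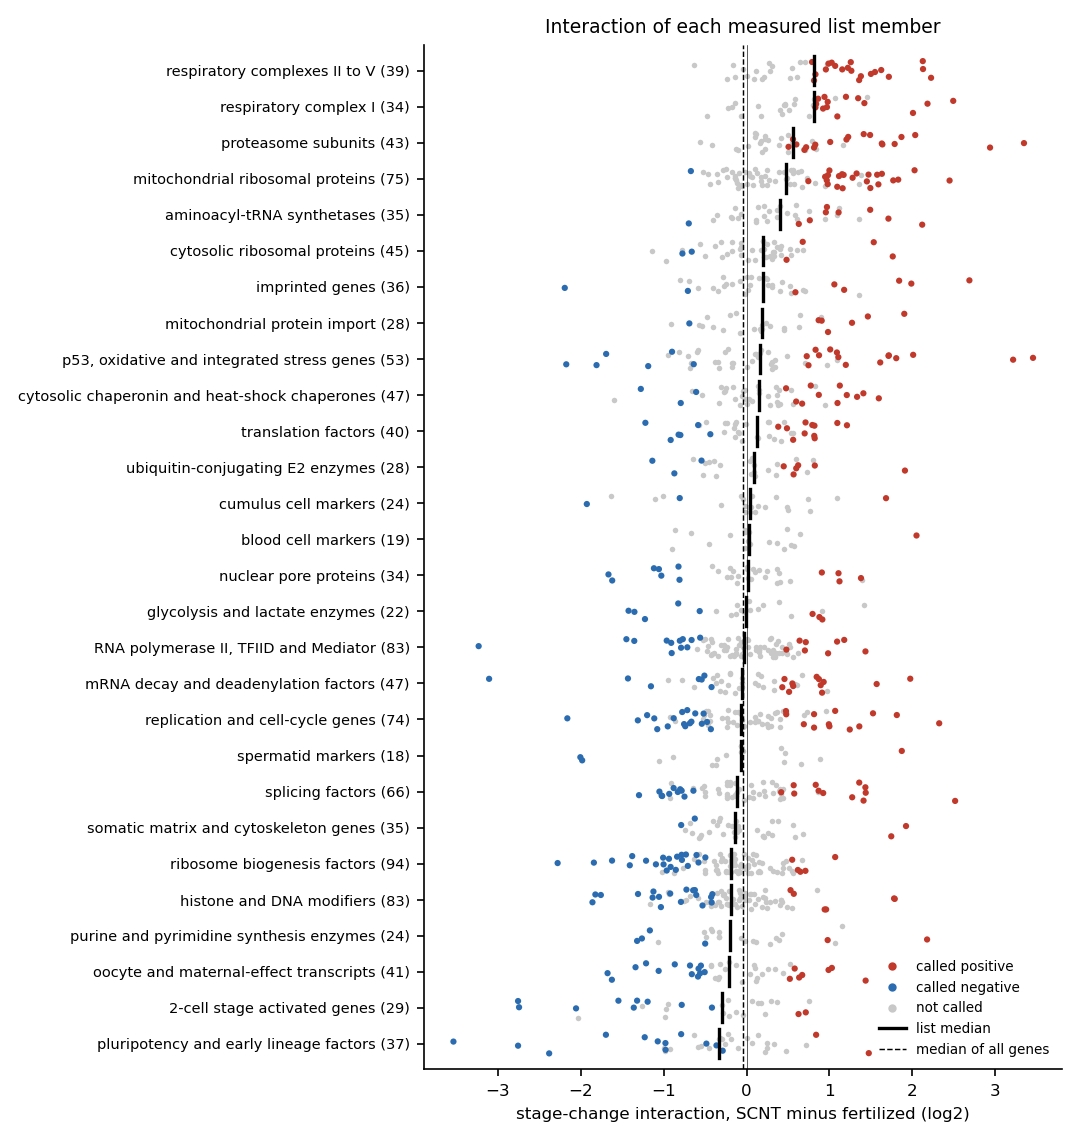
Stage-change interaction (log2, horizontal axis) of each measured member of 28 gene lists (points, number of members in parentheses), with called positive members in red, called negative in blue, uncalled in grey, a black bar at each list's median and a dashed line at the median of all genes (-0.05). Respiratory chain, proteasome and mitochondrial ribosome lists lie to the right, with medians from 0.48 to 0.81, and pluripotency factors lie furthest left at -0.33.

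Markers of cells that a sample could hold beside the embryo were called in shares of 4.17% and 8.33% for cumulus cells, 5.71% and 5.71% for somatic matrix and cytoskeleton, 5.56% and 11.1% for spermatids and 5.26% and 0% for blood cells (positive and negative), beside 8.62% and 10.4% of all genes. Of 24 cumulus cell markers 1 was called positive (Timp1, 1.68 (adjusted p = 0.0458)) and 2 negative (Npr2, -1.93 (adjusted p = 0.0354), and Kitl, -0.80 (adjusted p = 0.0402)). These 3 were not called in 12, 10 and 8 of the 15 fits that left out 1 array. The summed cumulus list, as a mean of its members, ran from 5.36 to 5.67 and from 5.61 to 6.01 on fertilized 1-cell and 2-cell arrays, and from 5.67 to 5.86 and 5.96 to 6.14 on SCNT arrays. Of its 24 members, 9, 12, 5 and 9 lay under the overall median in these 4 groups. Of 35 somatic matrix and cytoskeleton genes 2 were called positive (Anxa2, 1.92 (adjusted p = 3.41e-05), and S100a6, 1.75 (adjusted p = 0.0321)) and 2 negative (Fn1 and Krt8). Their list mean ran from 5.91 to 6.24 and 5.69 to 5.87 on fertilized and from 6.17 to 6.34 and 5.77 to 6.08 on SCNT arrays. S100a6 was not called in 8 of the 15 fits.

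Of 18 spermatid markers 1 was called positive (Gapdhs, 1.87 (adjusted p = 0.000198)) and 2 negative (Ddx4, -1.98 (adjusted p = 5.49e-08), and Oaz3, -2.003 (adjusted p = 0.0106)). Ddx4 is also a germ cell helicase of the oocyte. The spermatid list mean ran from 5.68 to 5.95 and 5.68 to 5.87 on fertilized and from 5.54 to 5.81 and 5.24 to 5.59 on SCNT arrays. Of 19 blood cell markers 1, Coro1a (2.04 (adjusted p = 0.0127)), was called positive and 0 negative. Its list mean ran from 5.72 to 5.97 and 5.30 to 5.65 on fertilized and from 5.65 to 5.91 and 5.52 to 5.69 on SCNT arrays. The part of other cells in the interaction was not tested.

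Embryos treated with α-amanitin gave the same contrast on 16 other arrays. These arrays enter no mean of the untreated interaction but share its normalization, gene filter and estimate of the spread. Under the inhibitor 5293 of 14916 genes (35.5%) were called, 2229 positive (14.9%) and 3064 negative (20.5%). Across genes, which are not independent replicates, the 2 interactions correlated at a Pearson r of 0.0836 and a Spearman rho of 0.0887. Of the 1286 genes positive without the inhibitor, 295 were positive and 351 negative with it (22.9% and 27.3% of these genes, 13.2% and 11.5% of the genes called in that direction with the inhibitor), and their median was -0.06. Of the 1550 negative genes, 251 were positive and 607 negative with it (16.2% and 39.2% of these, 11.3% and 19.8% of those), with a median of -0.28. The difference between the untreated and the treated interaction was itself called for 4326 genes (29%).

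Under the inhibitor the median was negative for all 28 lists, whether it had been positive, near 0 or negative without it. Splicing factors had -0.97 and nuclear pore genes -0.71. The proteasome median was -0.91, with 3 members called positive and 27 negative, beside 14.9% and 20.5% of all genes. The difference between treatments was called for 28 of 43 subunits in the untreated, positive direction and 1 in the other. Over all genes these shares were 15.7% and 13.3%. Proteasome list means read 9.06, 8.91, 8.95 and 9.07 and then 8.07, 8.11, 8.11 and 7.99 on treated fertilized arrays, and 8.96, 8.99, 8.97 and 8.79 and then 7.25, 7.28, 7.11 and 7.11 on treated SCNT arrays. Of the treated arrays the SCNT 2-cell ones lay lowest, and of the untreated arrays the SCNT 2-cell ones lay highest. The treated SCNT 2-cell arrays also stood apart in their controls. Poly(A) spikes averaged 10.48 there, against 3.82 on treated SCNT 1-cell and 7.47 and 7.61 on treated fertilized arrays, and hybridization controls 11.22 against 9.92 to 10.38. The part of the controls in the treated values was not tested. Complex I had a treated median of -0.76, complexes II to V -0.54 and mitochondrial ribosomal proteins -0.42, beside -0.07 for all genes. The pluripotency list had a treated median of -0.28 and ribosome biogenesis -0.41, both on the same side as without the inhibitor.

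Single genes differed in how they behaved with α-amanitin. Psph (-0.29), Ripk3 (0.41), Clcn2 (0.000391), Cltrn (0.21), Hormad1 (-0.15) and Tbx3 (0.28) had no called interaction there. Tfap2c, Gsdmc2, Rpl39l, Prmt2, Kmt2d and Dis3l, which fell in untreated clones, kept a called negative interaction, at -1.58, -2.09, -1.88, -1.42, -1.97 and -1.34. Tfap2c, for example, went from 10.28 to 9.07 in treated fertilized and from 10.52 to 7.74 in treated SCNT embryos. Txn1, Lsm3, Psmb3, Mrpl11 and Tardbp were positive without and called negative with the inhibitor, at -1.51, -2.29, -2.93, -3.85 and -4.41. Bub1b and Col27a1 were called positive in both, with treated values of 2.82 and 2.18.

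**Figure D5:**
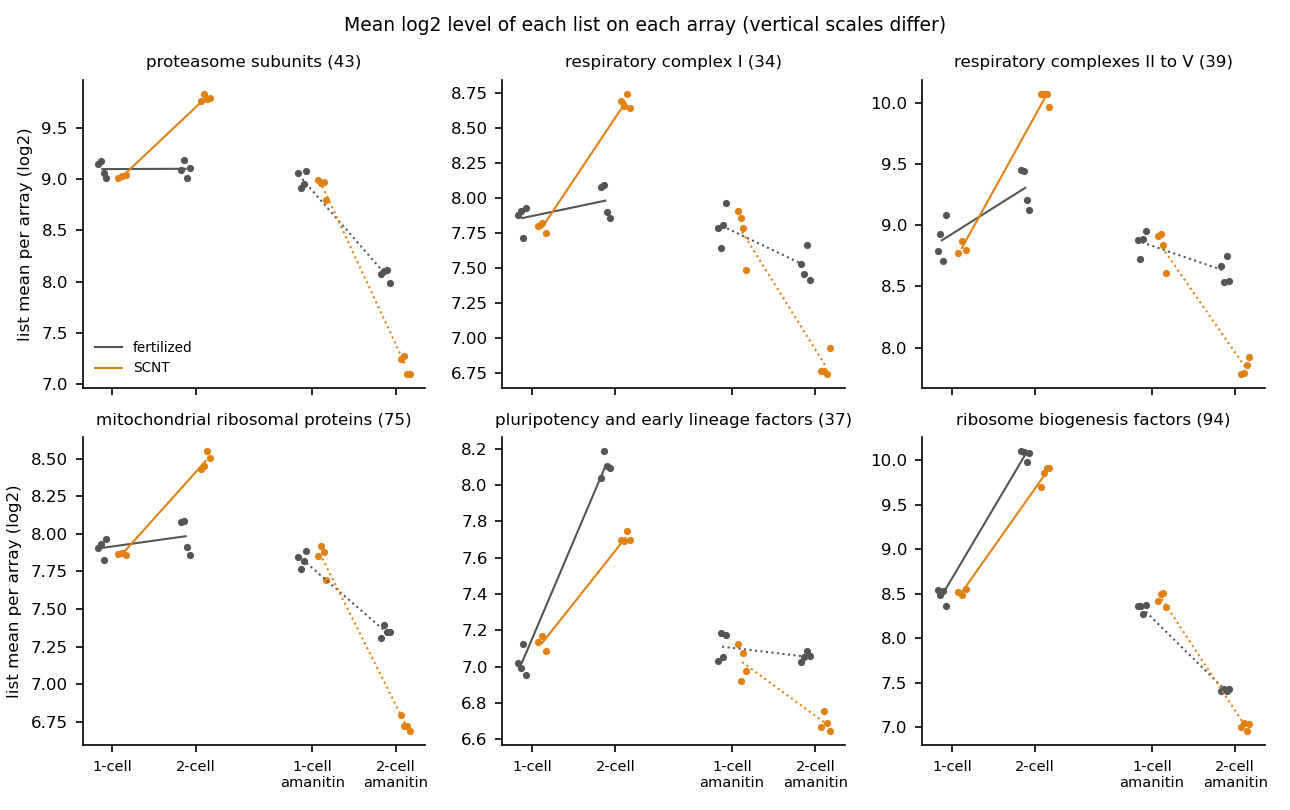
Mean log2 level of 6 gene lists on each array (points), at the 1-cell and 2-cell stages of untreated (solid lines) and α-amanitin-treated embryos (dotted lines), fertilized in grey and SCNT in orange, with lines between group means and vertical scales that differ between panels. Proteasome, respiratory and mitochondrial ribosome means are highest in untreated and lowest in treated SCNT 2-cell embryos.

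The 1-cell baseline of both origins was exchanged, since only 3 SCNT 1-cell arrays held values. With the treated 1-cell arrays in place of the untreated ones, 3759 genes (25.2%) were called. Of the 1286 positive genes 1013 (78.8%) kept a call in the same direction and 1 was called in the other. Of the 1550 negative genes 1081 (69.7%) kept it and 1 was called in the other. These fits share the 2-cell arrays, where most called genes differed, so the kept calls are no independent support. The fertilized 1-cell arrays were exchanged too, so the fits do not single out the 3 SCNT 1-cell arrays. The 8 parthenogenetic arrays enter no mean of the interaction but share its normalization, gene filter and estimate of the spread. These embryos had a median stage change of -0.32 over the positive and 0.03 over the negative genes. The fertilized medians of these genes were -0.53 and 0.01, and the SCNT medians 0.63 and -0.90. Psma7 went from 9.28 to 6.95 and Txn1 from 8.69 to 7.66 in parthenogenetic embryos. Tfap2c went from 10.04 to 8.77 and Tbx3 from 6.06 to 10.08. Psph read 6.05 and 5.06, and Cltrn 5.58 and 5.10.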

How the data were processed

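The data were 1 deposited table of 45101 probe sets by 40 samples, with linear signal intensity per probe set. Per the labels, poly(A) RNA was extracted with a PicoPure kit and biotin-labelled with an Enzo kit. The authors had scaled each deposited intensity column so that its mean, with 2% trimmed at each end, was 150, as computed from the values. The software for this is not given in the sources used here. Samples were grouped by stage, origin and treatment from their titles. Titles with an "A" ahead of the number were taken as α-amanitin samples. The value column of SCNT 1-cell replicate 2 was empty, so that sample entered no fit.

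Log2(deposited intensity + 6.9, the 20th percentile) was quantile normalized over 39 arrays. Of the probe sets, 64 were controls. Probe sets above the overall median on at least 4 arrays were kept (31153), of which 25931 were listed with 1 gene. Over the whole array the annotation gave 1 gene for 34945 probe sets, several for 932 and no gene for 9160. Each gene was represented by its brightest probe set on average, which left 14916 genes. A gene high in only 1 group of 4 arrays could pass the filter through that group. Clcn2 did so through SCNT 2-cell and Eif2s3y through fertilized 2-cell arrays. One limma fit (version 3.58.1, R 4.3.3, eBayes with trend) held 10 groups and gave 29 residual degrees of freedom. Tests were 2-sided with Benjamini-Hochberg adjustment over all genes at 0.05. The number of arrays limits the precision, and the table holds no detection calls. On simulated data the fit recovered 7.46%, 31.3% and 75.8% of genes given log2 interactions of 0.5, 1 and 2, with 6.17% of 81 calls false. These were 67, 67 and 66 genes, and no other simulated gene held an interaction. With so few, the adjusted p cutoff was stricter than in the real data, so the shares do not give the recovery there.

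The comparison, the 28 gene lists and the genes were chosen with earlier results of these data known. Genes were named by a rule: the 12 most positive and 12 most negative interactions that stayed called without any 1 of the 15 arrays, predicted and unnamed genes aside, then up to 4 called and 2 uncalled members per list and 5 per stage pattern. Part of these are named without values or left out, a choice made after their values were seen. Promoters came from RefSeq (GRCm38.p6). Alternatives were 14 other settings and the omission of each of 15 arrays. Same-numbered replicates (21 pairs) had deviations that correlated from -0.0479 to 0.0488, so no pairing by number was seen. Whether same-numbered samples were handled together is not stated.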

Additional observations from a re-analysis of the deposited data

Results flagged for a closer look

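The stage change differed between SCNT and fertilized embryos, by limma's test of the interaction, for 2836 genes. The interaction itself differed between untreated and α-amanitin-treated embryos for 4326 genes.

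In 27 of 435 gene-by-group and list-by-group sets of 4 arrays, 1 array stood further from its nearest neighbour than the critical value of Dixon's test allows, where chance gives about 1 in 20. Replicate 1 was that array in 12 of them, replicate 2 in 5, replicate 3 in 7 and replicate 4 in 3. On fertilized 1-cell replicate 1, Tfap2c was low at 9.70, Psma5 at 9.94, Hsp90b1 at 9.57, Prmt2 at 11.18 and Bub1b at 10.15. Atp5e was high on that array, at 6.95. The same array had an oocyte list mean of 11.14 and a mean of ubiquitin-conjugating enzymes of 9.17. The remaining fertilized 1-cell values were 3.54 for Krt28 on replicate 3, 7.91 for Mrpl11 on replicate 4 and 7.19 for Ube2d1 on replicate 2. At the fertilized 2-cell stage replicate 1 read 8.50 for Hsp90b1 and 12.16 for Dppa5a, replicate 3 read 9.55 for Asf1a, and replicate 2 read 9.74 for Tardbp.

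Among SCNT 2-cell arrays, replicate 1 read 10.09 for Col27a1 and 10.60 for Klf4. Replicate 2 read 5.49 for Mep1b and 6.10 for Dis3l, and replicate 3 read 9.58 for Cnot8, 9.52 for Samm50 and 9.37 for Etf1. Oaz3 read 5.37 on replicate 4. Of the list means, ribosome biogenesis stood at 9.98 on fertilized 2-cell replicate 3 and replication and cell-cycle genes at 9.53 on replicate 2. Complexes II to V stood at 9.96 on SCNT 2-cell replicate 4 and pluripotency factors at 7.75 on replicate 3.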

How the results depend on the processing

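The count of called interactions ran from 2428 to 2957 with single arrays left out (1094 to 1295 positive, 1320 to 1662 negative), and from 2428 to 3759 over every setting run. With the replicate number as a block 2787 genes were called, 2716 of them also called without it, and of 111 called named genes it left 110 called. With only the 15 arrays in the fit 2788 genes were called, and 2409 of them were also called in the main fit in the same direction. Array medians of the log2 values spanned 0.822, so scaling mattered for lists. A list median was taken as moved when it shifted by more than the SD that a double difference of single arrays would have, and as reversed when its sign changed and both values also exceeded that SD. Medians with a changed sign and 1 or both values within it are given among those that moved. With median centring the medians reversed for translation factors (-0.14) and chaperones (-0.12), and moved for mRNA decay (-0.18), 2-cell genes (-0.74), cytosolic (-0.10, from above 0) and mitochondrial (0.22) ribosomal proteins, ribosome biogenesis (-0.41), proteasome (0.37), ubiquitin-conjugating enzymes (-0.10, from above 0), complex I (0.51), complexes II to V (0.47), import (-0.026, from above 0), splicing (-0.32), polymerase II and Mediator (-0.17), pores (-0.22, from above 0), histone and DNA modifiers (-0.29), pluripotency (-0.51), cell cycle (-0.29), stress (-0.039, from above 0) and purine synthesis (-0.40). With the α-amanitin 1-cell baseline the splicing median reversed (0.13), as did Nop2 (0.17) and Kitl (0.18), and medians moved for mRNA decay (0.17), 2-cell genes (-0.55), ribosome biogenesis (-0.36), translation (0.0086), import (-0.033), polymerase II and Mediator (0.092), histone and DNA modifiers (-0.021), pluripotency (-0.15), cell cycle (0.037) and stress (0.40). With values as deposited they were -0.56 for 2-cell genes, 0.037 for translation and -0.12 for histone and DNA modifiers. The mean of probe sets gave 0.035 for mRNA decay, 0.55 for complexes II to V, -0.55 for pluripotency and 0.038 for purine synthesis. Quantile normalization over the 15 arrays gave 0.70 for the proteasome and 0.027 for splicing, the constant at the 5th percentile -0.48 for pluripotency, and the filter on the mean -0.35 for spermatid markers. With single arrays left out mRNA decay ran from -0.076 to 0.064, chaperones from 0.11 to 0.27 (highest without SCNT 2-cell replicate 2) and splicing from -0.12 to 0.0076 (highest without the same array). The medians of 2-cell genes (-0.45 to -0.29), oocyte genes (-0.25 to -0.12), cytosolic ribosomal proteins (0.11 to 0.24), ribosome biogenesis (-0.20 to -0.12), purine synthesis (-0.27 to -0.13), imprinted genes (0.06 to 0.30) and ubiquitin-conjugating enzymes (0.05 to 0.19) also changed by over 1.5 times without single arrays, as did those under 0.1 in size for cell-cycle, polymerase II, pore, glycolysis, cumulus, spermatid and blood lists, and the somatic matrix list (-0.28 to -0.09). The filter on the mean left 94 of the 111 called named genes in the test, and all 94 kept their call and direction. Without the filter Eif2s3y reversed (0.029), since another probe set then stood for it. The cause of the other shifts was not tested. Of the 111 called named genes, 11 lost the call with the mean of probe sets, 4 each with median centring, the α-amanitin baseline and quantile normalization over 15 arrays, and 0 to 4 in each fit that left out an array. The calls lost there were those of Timp1, Npr2, Kitl and S100a6, while Psme4 gained one in 2 such fits and Atp5b in 4. One alternative each cost the call of Adsl and Coro1a (5th percentile), Eif3k, Klf4 and Nelfa (median centring), Etf1 and Nsa2 (15 arrays), Gapdhs and Zfp352 (baseline) and Lsm6, Oaz3, Plagl1 and Psmc6 (mean of probe sets), and 2 alternatives that of Nobox. Levels near the added constant limit what can be said of low genes.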
